A study of Mus musculus with 21 samples.

Results

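The genes described here encode the proteasome, the barrel-shaped protease that degrades proteins tagged with ubiquitin, together with its activators, its inhibitor and the chaperones that assemble it. They were taken as the rows whose symbol starts with Psma, Psmb, Psmc, Psmd, Psme, Psmf or Psmg followed by a digit. Of 11628 genes in the expression table, 49 matched, and the 3 immunoproteasome genes Psmb8, Psmb9 and Psmb10 were set apart, leaving 46. These comprise 15 core genes, 20 cap genes, 4 activators, the inhibitor Psmf1, 4 core assembly chaperones, and 2 genes caught by their names alone. That pair is Psmc3ip, a cofactor of meiotic recombination that is no proteasome subunit, and Psme2b, a near-copy of Psme2. All 46 passed the filter on low values, and Psmb11, the thymus-specific core gene, was not analysed here.

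RNA was measured in hematopoietic progenitors sorted from mouse bone marrow, in 21 libraries from polyA RNA. Mutant libraries came from 4 mice homozygous for a germline Etv6 allele (genotype ETV6 mt/mt, given as h.P214L in the series' design), and wild-type libraries from 3 mice (genotype Wild Type). Etv6 is a transcriptional repressor of the ETS family. Each genotype was sorted into hematopoietic stem cells (HSC: lineage-negative, cKit+ Sca1+ FLK2- CD150+ CD38-), the lymphoid-primed multipotent progenitors called MPP4 (lineage-negative, cKit+ Sca1+ FLK2+) and common lymphoid progenitors (CLP: lineage-negative, IL7+ Flk2+, low for cKit and Sca1). The 6 groups therefore hold 4 mutant and 3 wild-type libraries for each of the 3 populations. Mice were of both sexes, aged 12 or 10 weeks. Strain was not given in the labels used here, and the allele is carried in the germline, so every cell of a mutant mouse has it.

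The 26S proteasome has a core of 4 stacked rings, with an alpha ring at each end that gates entry and a pair of beta rings between them that hold the catalytic sites. The cap carries a ring of ATPases that unfold and thread substrates, a lid that removes ubiquitin, and receptors that bind it. Nearly every cell needs this machine, and its subunit genes are known to be transcribed together, in mammals through Nfe2l1 when proteasome activity is short. In hematopoietic stem cells, protein synthesis and degradation are kept within narrow limits, and immune cells can replace the 3 catalytic beta subunits with the immunoproteasome forms.

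Levels are in RPKM, a read count scaled by gene length and library size, as deposited. The RPKM values of a library summed to between 337818 and 376135 over the table, and read totals are not given, so the depth is unknown. Differences were tested with limma on log2(RPKM + 1) over 11496 genes, a scale that understates the change of low genes. A gene is called where the two-sided adjusted p (Benjamini-Hochberg over all genes tested) is under 0.05. Sorting markers matched the population labels: all 7 HSC markers, among them Slamf1 and Procr, were lower in wild-type MPP4 than in HSC, all 4 MPP4 markers, Flt3 and Dntt included, were higher, and all 5 CLP markers, Il7r and Rag1 included, were higher in wild-type CLP than in MPP4. The MPP4 markers were not highest in MPP4: their sum was 1509 ± 175 RPKM in wild-type MPP4 and 2269 ± 33.8 RPKM in wild-type CLP (SD, n = 3). Genes of plasmacytoid dendritic cells summed to 673 ± 137 RPKM in wild-type CLP, against 188 ± 23.0 RPKM in wild-type MPP4. Neutrophil genes varied widely between libraries of a group. S100a8 had 553 RPKM in wild-type HSC replicate 2, against 39.4 and 5.67 RPKM in replicates 1 and 3. It ranged from 44.3 to 740 RPKM in mutant MPP4 and from 1.88 to 774 RPKM in mutant CLP. In sorted bulk cells, fewer cells of a type and less RNA per cell cannot be told apart. The series names 4 mutant and 3 wild-type mice for all populations together, so the populations of a genotype would share mice. Mutant number 4, however, is labelled 10 weeks in CLP and 12 weeks in HSC and MPP4. The comparison between populations without a mouse term treats their libraries as independent.

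Proteasome genes were abundant and close to constant across the 6 groups. The 31 subunits of the assembled 26S particle had mean levels over the 21 libraries between 25.3 RPKM (Psmb7) and 202 RPKM (Psma2), and the highest group mean exceeded the lowest by a median factor of 1.16. Over all 46 genes, with 1 RPKM added to each group mean, this factor had a median of 1.18, against 1.42 over all genes tested. The levels of these sets differ: the 46 genes had a median mean level of 74.5 RPKM, and the median gene of a library 12.0 to 13.6 RPKM. No comparison with genes of like level was made. The alpha ring genes lay between 112 and 202 RPKM. Beta ring genes ranged more widely, between 25.3 RPKM for Psmb7 and 176 RPKM for Psmb1. The 6 ATPases lay between 55.1 RPKM (Psmc6) and 112 RPKM (Psmc3), and the 8 lid genes between 38.0 RPKM (Psmd11) and 113 RPKM (Psmd7). Psme1, an interferon-inducible activator subunit, was the highest of the 46 at 292 RPKM, and Psme4, the activator known as PA200, the lowest at 6.19 RPKM.

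**Figure D1:**
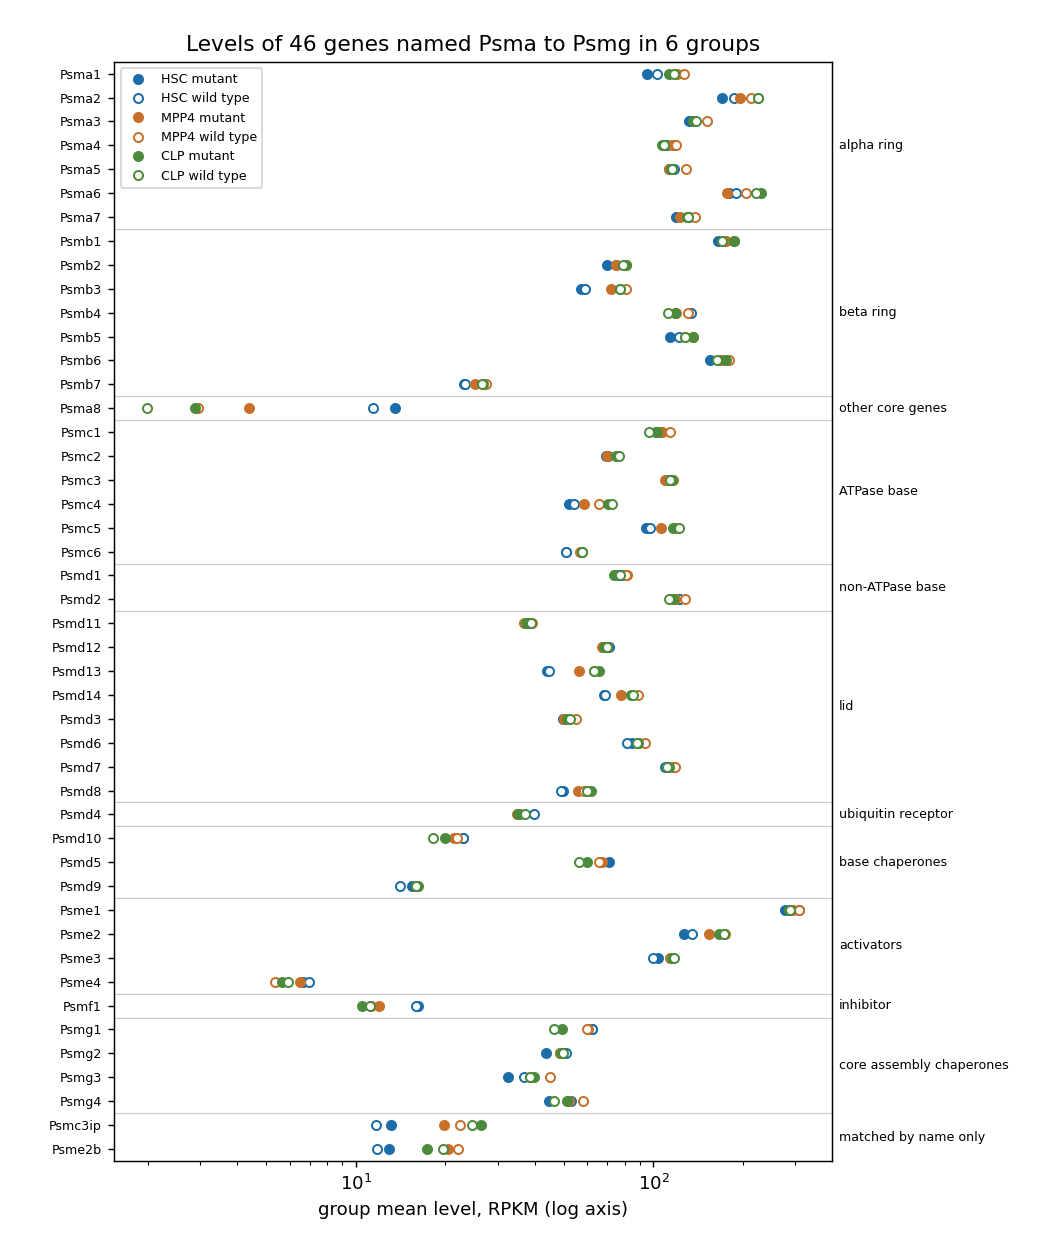
Group mean levels of the 46 genes in RPKM on a log axis, in rows grouped by role; filled points are mutant and open points wild-type groups, coloured by population. In most rows the 6 groups lie close together, while Psma8 spreads over a 6.79-fold range and Psmf1 over a 1.54-fold range.

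The summed level of the 31 subunits was 2861 ± 124 RPKM in mutant HSC and 2973 ± 37.1 RPKM in wild-type HSC. It was 3036 ± 117 RPKM in mutant MPP4 and 3279 ± 46.7 RPKM in wild-type MPP4. In CLP it was 3184 ± 223 RPKM in mutant and 3148 ± 206 RPKM in wild-type libraries (SD, n = 4 mutant and n = 3 wild-type libraries in each). These sums made up between 0.823% and 0.906% of all RPKM as group means. The sums of mutant MPP4 libraries, 2904 to 3181 RPKM, all lay below those of wild-type MPP4, 3225 to 3313 RPKM, whereas the genotypes overlapped in HSC and CLP. These sums are given as a description, with no test.

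Promoter sequence is shown for a few members, picked from those that moved between populations or that carry a catalytic site, as a view of the letters in front of their starts. Each one shown holds a marked motif, which does not hold for all members that moved. The promoter windows of Psmc4, Psmc5, Psmd8, Psme2, Psme2b and Psmf1, which were also called between populations, hold none of the motifs marked here. Each line is read 5′ to 3′ on the gene's strand and holds 155 bases, 150 before the RefSeq start and 5 from it, in build GRCm38.p6. Capitals mark CCAAT or its complement ATTGG, the box bound by NF-Y (in Psma1, minus strand, chr7:114276112-114276266, and Psmb3, plus strand, chr11:97703284-97703438). They mark TGACNNNGC, the antioxidant response element bound by Nfe2l1 and Nfe2l2, in Psmb5 (minus strand, chr14:54617991-54618145). In Psmd13 (plus strand, chr7:140882244-140882398) and Psmg1 (minus strand, chr16:95990956-95991110) they mark CCGGAAG, a core sequence bound by ETS factors.
Psma1: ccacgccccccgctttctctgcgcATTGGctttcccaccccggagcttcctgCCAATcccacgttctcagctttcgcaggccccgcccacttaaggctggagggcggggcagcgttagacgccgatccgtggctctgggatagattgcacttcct
Psmb3: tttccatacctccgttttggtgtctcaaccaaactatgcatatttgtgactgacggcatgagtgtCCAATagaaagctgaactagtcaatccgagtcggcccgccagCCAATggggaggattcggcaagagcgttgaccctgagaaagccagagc
Psmb5: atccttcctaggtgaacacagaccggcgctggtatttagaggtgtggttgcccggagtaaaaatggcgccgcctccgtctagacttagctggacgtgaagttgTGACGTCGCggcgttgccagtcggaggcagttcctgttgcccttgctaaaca
Psmd13: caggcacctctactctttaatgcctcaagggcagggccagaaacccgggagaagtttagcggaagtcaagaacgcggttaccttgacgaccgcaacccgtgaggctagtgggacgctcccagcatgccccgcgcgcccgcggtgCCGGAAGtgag
Psmg1: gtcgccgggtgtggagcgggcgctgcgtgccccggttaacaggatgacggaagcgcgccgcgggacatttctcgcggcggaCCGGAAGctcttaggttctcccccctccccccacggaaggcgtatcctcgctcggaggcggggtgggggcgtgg

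RefSeq promoter windows, 250 bases before to 50 after the start, were at hand for 38 of the 46 genes. CCGGAAG, or CTTCCGG on the other strand, was in 15 of these 38 windows (39.5%), against 21.1% of the windows of 9395 genes. TGACNNNGC, or GCNNNGTCA, was in 6 of 38 (15.8%) against 16.9%, and CCAAT, or ATTGG, in 13 of 38 (34.2%) against 43.3%. Each motif was counted on its own, whether or not it overlapped another, and a match is a description of sequence with no evidence of binding here. The 2 CCAAT boxes of Psmb3 start 85 and 43 bases before its RefSeq start, and the CCGGAAG of Psmd13 starts 6 bases before it.

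In wild-type mice, 12 of the 46 genes rose and 2 fell in MPP4 relative to HSC, against a background of 16.1% of all genes called higher and 23.3% called lower (39.3% in either direction). That is 26.1% of the 46 called higher and 4.35% called lower. In all, 34 of the 46 had a positive and 12 a negative log2 difference, with a median of 0.12 against −0.06 over all genes tested. The count depends on the scaling: with median-ratio scaling 19 rose and 2 fell, and 14 rather than 8 of the 31 subunits rose, whereas quantile normalization gave 11 and 2, with 7 subunits. Over all genes, median-ratio scaling called 2180 higher and 2358 lower, and quantile normalization 2217 and 2169, in place of 1849 and 2673. Of the 31 subunits of the particle, those that rose without rescaling were Psma1 of the alpha ring, Psmb3 of the beta ring, the ATPases Psmc4 and Psmc5, and the lid genes Psmd6, Psmd8, Psmd13 and Psmd14. The other genes that rose were Psme2, Psmg3, Psmc3ip and Psme2b, and the 2 that fell were Psma8 and Psmf1. By part, 2 of 15 core genes, 6 of 20 cap genes and 1 of 4 activators rose, with median log2 differences of 0.12, 0.11 and 0.09.

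Psma8 encodes an alternative alpha subunit known from the testis of the mouse, where it takes the place of Psma7 in the proteasome of spermatocytes. Its level was 2.49, 2.81 and 3.55 RPKM in wild-type MPP4, against 15.6, 9.04 and 9.73 RPKM in wild-type HSC. Every MPP4 library lay below every HSC library. The log2 difference was −1.63 ± 0.26 (SE, as for every log2 difference given with ± here), with an adjusted p of 5.65e-05 by limma.

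In mutant mice Psma8 had 3.32, 3.91, 4.93 and 5.39 RPKM in MPP4, against 8.67, 10.8, 20.1 and 14.4 RPKM in HSC. These libraries did not overlap either, and the log2 difference was −1.38 ± 0.23 (adjusted p = 6.60e-05 by limma). In CLP it was lowest, at 1.67, 2.69, 2.76 and 4.41 RPKM in mutant and 2.32, 1.90 and 1.75 RPKM in wild-type libraries, and wild-type CLP lay below wild-type HSC by 2.03 on the log2 scale (adjusted p = 2.14e-06 by limma). The CLP and MPP4 libraries overlapped in mutant mice, and the step between them was not called in either genotype.

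Set against Psma7, the alpha subunit it can replace, Psma8 reached 11.4 ± 4.38% of the Psma7 level in mutant HSC and 8.75 ± 2.99% in wild-type HSC. This share was 3.57 ± 0.655% in mutant MPP4 and 2.15 ± 0.461% in wild-type MPP4, and 2.21 ± 0.814% in mutant CLP and 1.52 ± 0.244% in wild-type CLP (SD, n = 4 and n = 3). The longest coding transcripts of the 2 genes are 78.3% identical over 636 aligned bases, so a small part of the reads counted for one could belong to the other. Psma7 itself was not called in any of the 10 comparisons.

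Psmf1 encodes PI31, a protein that inhibits the core in vitro. It had 11.9, 11.7 and 10.0 RPKM in wild-type MPP4, against 16.7, 14.9 and 16.1 RPKM in wild-type HSC. The MPP4 libraries were all lower, with a log2 difference of −0.47 ± 0.09 (adjusted p = 0.000443 by limma). In mutant mice it had 11.8, 11.8, 12.1 and 12.2 RPKM in MPP4, against 17.8, 13.98, 17.4 and 15.4 RPKM in HSC, again without overlap (log2 difference −0.40 ± 0.08, adjusted p = 0.00048 by limma). CLP libraries had 10.3, 10.6, 10.9 and 10.3 RPKM in mutant and 11.3, 11.4 and 10.7 RPKM in wild-type mice. Every mutant CLP library lay below every mutant MPP4 library, a log2 difference of −0.17 that was not called (adjusted p = 0.132 by limma), whereas wild-type CLP and MPP4 libraries overlapped. As a share of the summed 26S subunits, Psmf1 amounted to 0.567% in mutant HSC and 0.534% in wild-type HSC, 0.394% in mutant MPP4 and 0.342% in wild-type MPP4, and 0.331% in mutant CLP and 0.355% in wild-type CLP (group means).

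Psmd13, the lid subunit Rpn9, showed the highest rise among the 31 subunits in wild-type mice. It had 63.9, 69.8 and 56.1 RPKM in MPP4, against 51.1, 45.6 and 37.4 RPKM in HSC. No MPP4 library fell within the HSC range, and the log2 difference was 0.50 ± 0.11 (adjusted p = 0.000794 by limma). In mutant mice it had 55.7, 60.7, 51.1 and 56.8 RPKM in MPP4, against 41.6, 46.2, 43.7 and 44.6 RPKM in HSC, also apart (0.34 ± 0.09, adjusted p = 0.00529). CLP libraries were at 59.7, 67.6, 70.4 and 65.7 RPKM in mutant and 67.0, 57.0 and 65.7 RPKM in wild-type mice, above every HSC library. Psmd13 shares 342 exon bases with Sirt3 on the opposite strand, and the library kit marks no strand. Sirt3 averaged 82.8 ± 10.0 RPKM in wild-type MPP4 and 85.3 ± 8.86 RPKM in wild-type HSC and was not called.

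Psmb3, a beta ring subunit without a catalytic site, was singled out after its values were seen. It had 82.9, 77.6 and 81.4 RPKM in wild-type MPP4, against 56.0, 60.8 and 59.9 RPKM in wild-type HSC, and in mutant mice 69.6, 75.6, 67.6 and 75.0 RPKM in MPP4, against 53.9, 58.0, 53.2 and 63.3 RPKM in HSC. The populations were apart in both genotypes, with log2 differences of 0.45 ± 0.10 in wild-type mice (adjusted p = 0.000977 by limma) and 0.33 ± 0.08 in mutant mice (adjusted p = 0.00355).

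The 2 genes matched by name alone had the highest rises of the 46. Psmc3ip had 23.4, 23.7 and 19.8 RPKM in wild-type MPP4, against 14.3, 13.97 and 6.89 RPKM in wild-type HSC, a log2 difference of 0.93 ± 0.20 (adjusted p = 0.00102 by limma). Its HSC libraries spread widely, with the replicate 3 library lowest, yet none reached the MPP4 range. Psmc3ip shares 385 exon bases with Mlx on the opposite strand, which averaged 17.8 RPKM in wild-type MPP4 and 17.4 RPKM in wild-type HSC. In mutant mice Psmc3ip had 16.7, 19.5, 22.1 and 21.04 RPKM in MPP4, against 9.08, 16.3, 13.7 and 13.5 RPKM in HSC, barely apart (0.58 ± 0.18, adjusted p = 0.0129), and this call was lost without the mutant HSC replicate 1 library.

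Psme2b had 24.3, 21.9 and 19.7 RPKM in wild-type MPP4, against 12.8, 11.8 and 10.7 RPKM in wild-type HSC, with a log2 difference of 0.85 ± 0.12 (adjusted p = 7.47e-06 by limma). All MPP4 libraries were higher. In mutant mice it had 21.05, 16.5, 20.5 and 23.1 RPKM in MPP4, against 12.7, 11.1, 13.6 and 14.4 RPKM in HSC, again apart (0.61 ± 0.10, adjusted p = 6.82e-05). Its longest transcript is 99.4% identical to that of Psme2 over 794 aligned bases, so its level is uncertain and cannot be told apart from misassigned Psme2 reads. Psme2, the PA28 beta subunit, rose to 171, 172 and 179 RPKM in wild-type MPP4, against 131, 138 and 134 RPKM in wild-type HSC (0.37 ± 0.09, adjusted p = 0.00287).

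The ATPase Psmc4, also singled out after its values were seen, rose through all 3 populations in mutant mice. It had 52.6, 51.9, 55.1 and 47.6 RPKM in mutant HSC, 58.0, 60.8, 58.5 and 56.9 RPKM in mutant MPP4, and 64.1, 74.1, 75.3 and 67.7 RPKM in mutant CLP. No library of one population fell within the range of another, and the log2 differences were 0.17 ± 0.06 for MPP4 over HSC (adjusted p = 0.0333 by limma) and 0.26 ± 0.06 for CLP over MPP4 (adjusted p = 0.0045). In wild-type mice it had 54.2, 56.3 and 52.3 RPKM in HSC, 64.9, 68.6 and 63.8 RPKM in MPP4, and 69.0, 75.9 and 73.3 RPKM in CLP. The wild-type libraries were apart at both steps as well. The first wild-type step was called (0.27 ± 0.07, adjusted p = 0.0052 by limma) and the step to CLP was not. The mutant MPP4 call was lost under 7 of 17 alternatives, among them leaving out HSC replicate 2 or 4 or MPP4 replicate 1, 2 or 3.

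Psme2 was the only 1 of the 4 activators called in MPP4 relative to HSC, in either genotype. Psme1, the PA28 alpha subunit, averaged 277 ± 22.9 RPKM in mutant HSC and 309 ± 30.5 RPKM in wild-type HSC, 293 ± 22.9 RPKM in mutant MPP4 and 307 ± 19.4 RPKM in wild-type MPP4, and 286 ± 19.1 RPKM in mutant CLP and 287 ± 16.9 RPKM in wild-type CLP (SD, n = 4 and n = 3), and was called nowhere. Psme3, the nuclear PA28 gamma, averaged 117 ± 3.28 RPKM in wild-type CLP and 99.9 ± 13.2 RPKM in wild-type HSC, a log2 difference of 0.23 ± 0.09 that was called (adjusted p = 0.0295 by limma). Psme4 lay between 4.63 and 7.80 RPKM in all 21 libraries. It was lower in every wild-type MPP4 library than in every wild-type HSC library, by 0.32 on the log2 scale, without a call (adjusted p = 0.0747), and it was not called in any other comparison. With each mouse as a block, 16 rather than 14 of the 46 genes were called in wild-type MPP4 relative to HSC. The 2 added were Psme4, which was lower (adjusted p = 0.0379 by limma), and Psme3, which was higher by 0.19 (adjusted p = 0.0478, against 0.0842 without the block). Calls over all genes rose with the block as well, to 2142 higher and 3062 lower, in place of 1849 and 2673.

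**Figure D2:**
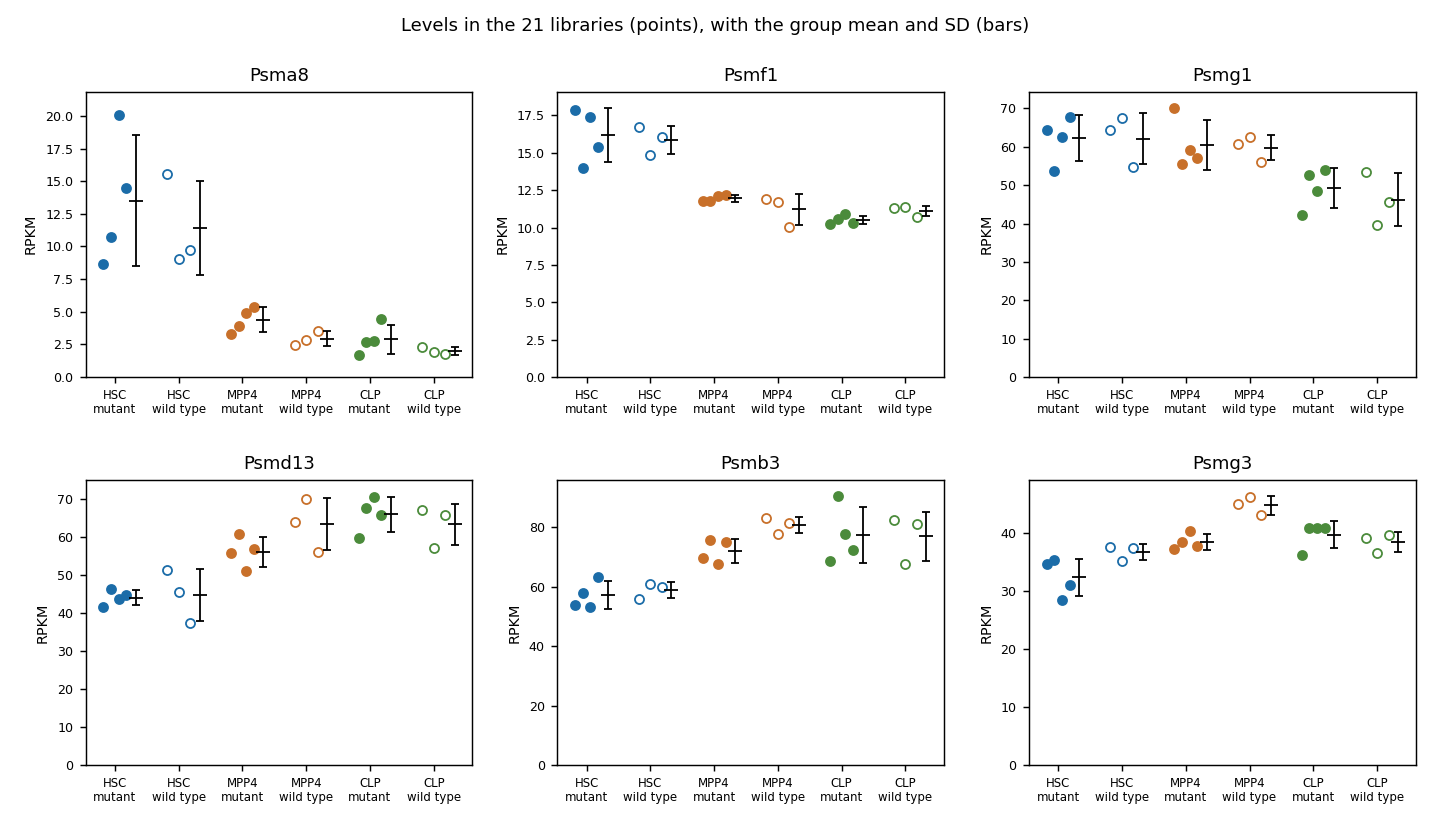
RPKM in each of the 21 libraries for Psma8, Psmf1, Psmg1, Psmd13, Psmb3 and Psmg3, with filled points for mutant and open points for wild-type libraries and bars for the group mean and SD. Psma8 and Psmf1 are highest in HSC, Psmd13 and Psmb3 are lowest in HSC, and Psmg1 is lowest in CLP.

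The mutant mice gave a second, separate set of libraries for the same step. There, 9 of the 46 genes rose and 2 fell in MPP4 relative to HSC, against 16.0% of all genes called higher and 23.1% called lower (39.1% in either direction). With median-ratio scaling 14 rose and 2 fell, and with quantile normalization 7 rose and 3 fell. Over all genes, median-ratio scaling called 2081 higher and 2371 lower, and quantile normalization 2178 and 2333, in place of 1837 and 2659. All 11 genes called without rescaling (100% of the mutant calls, 78.6% of the 14 wild-type calls) were also called in wild-type mice. The same overlap was not computed over all genes, so it cannot be called particular to these genes. For Psmc5, Psmd6 and Psmd14, called in wild-type mice, the mutant log2 differences ran the same way but missed the threshold, and the difference between genotypes was not called for any of the 46. With each mouse as a block, Psmc5 (0.17, adjusted p = 0.0407 by limma, against 0.0724 without the block) and Psma2 (0.19, adjusted p = 0.0325) were called in mutant mice as well, 13 in all. Over all genes the block called 2109 higher and 2993 lower, in place of 1837 and 2659. The median log2 difference of the 46 genes was 0.08, against −0.05 over all genes tested. Psmd8 lost its mutant call under 6 of 17 alternatives, among them leaving out HSC replicate 1 or 4 or MPP4 replicate 3 or 4.

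**Figure D3:**
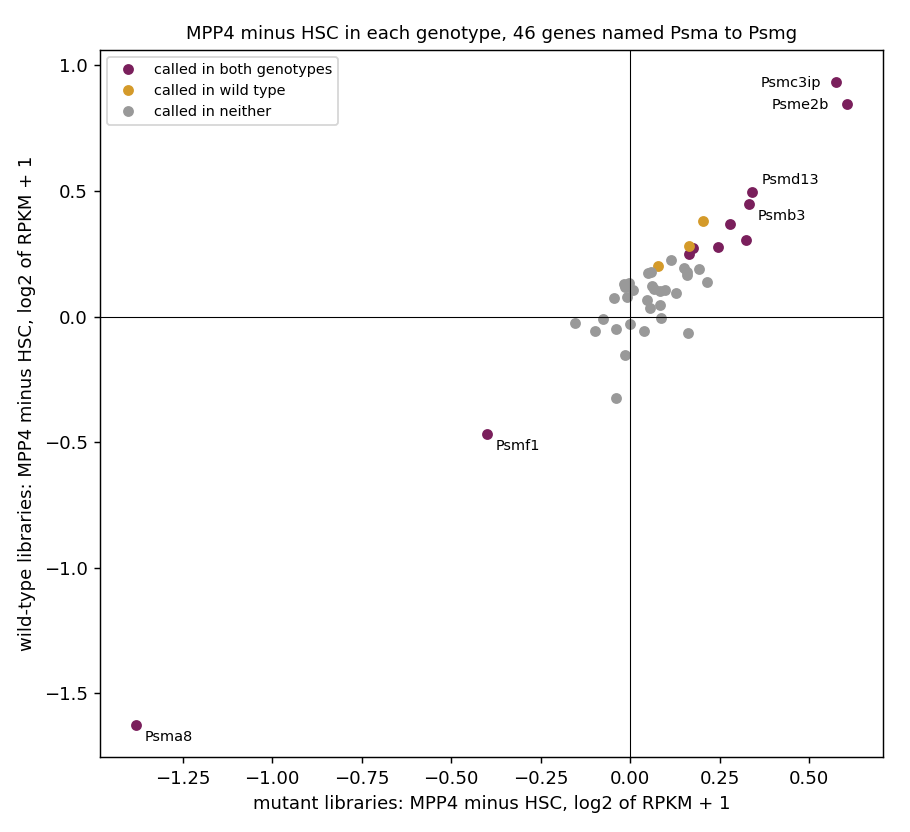
Log2 difference of MPP4 minus HSC (RPKM + 1) in mutant libraries on the x axis and in wild-type libraries on the y axis, 1 point per gene. The 11 genes called in both genotypes include Psma8 and Psmf1 at the lower left and Psmc3ip, Psme2b, Psmd13 and Psmb3 at the upper right, and most of the others lie near 0 on both axes.

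Cell-cycle genes moved with these rises. All 12 of the 12 proliferation genes looked for, such as Mki67 and Top2a, were higher in wild-type MPP4 than in HSC, with a median log2 difference of 1.22, and their summed level ranged from 1235 to 1347 RPKM in MPP4 and from 446 to 849 RPKM in HSC. The lowest HSC sum was that of the wild-type replicate 3 library. Without that library, Psmc5 and Psmd14 were no longer called in the wild-type step, nor was Psmd6, which lost its call under 7 of 15 alternatives, among them leaving out HSC replicate 2 or any MPP4 library. The part of proliferation in the rise of proteasome genes was not tested.

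The catalytic subunits showed smaller differences, none of which was called in any of the 10 comparisons. Psmb5, the chymotrypsin-like site, had 137, 135 and 137 RPKM in wild-type MPP4, against 116, 124 and 125 RPKM in wild-type HSC, without overlap (0.16 ± 0.09, adjusted p = 0.154 by limma). In mutant mice it had 110, 137, 125 and 137 RPKM in MPP4, against 110, 115, 113 and 116 RPKM in HSC, where 1 MPP4 library lay within the HSC range (adjusted p = 0.109).

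Psmb6, the caspase-like site, had 180, 179 and 179 RPKM in wild-type MPP4, against 171, 156 and 178 RPKM in wild-type HSC, and the highest HSC library came within 1 RPKM of the MPP4 libraries (adjusted p = 0.481 by limma). Psmb7, the trypsin-like site, had 25.7, 30.2 and 26.5 RPKM in wild-type MPP4, against 24.4, 22.7 and 22.8 RPKM in wild-type HSC, apart but not called (adjusted p = 0.0979). Psmb7 shares 405 exon bases with Nek6 on the opposite strand, whose level was 23.0 RPKM in wild-type MPP4 and 10.1 RPKM in wild-type HSC. In CLP, Psmb5 ranged over 120 to 145 RPKM in mutant and 114 to 135 RPKM in wild-type libraries, Psmb6 over 154 to 185 RPKM in mutant and 146 to 176 RPKM in wild-type libraries, and Psmb7 over 23.9 to 28.7 RPKM in mutant and 21.7 to 29.4 RPKM in wild-type libraries. The genotypes overlapped for all 3. The annotation names 2 pseudogenes for Psmb6, 2 for Psmb7 and 1 for Psmb5, which could take up some of their reads.

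Of the 3 immunoproteasome genes that can replace these sites, Psmb8 and Psmb9 were called in MPP4 relative to HSC in both genotypes and Psmb10 in neither. Psmb8, the counterpart of Psmb5, stood at 2.80 ± 0.279 times the Psmb5 level in mutant MPP4 and 3.51 ± 0.478 times in wild-type MPP4, and at 2.16 ± 0.156 times in mutant HSC and 2.43 ± 0.116 times in wild-type HSC (SD, n = 4 and n = 3). In wild-type MPP4, Psmb8 was higher than in HSC by 0.69 and Psmb9, the counterpart of Psmb6, by 0.47 on the log2 scale. Psmb10, the counterpart of Psmb7, fell in wild-type CLP relative to MPP4 by 0.28. Psmb10 was 3.05 times Psmb7 in mutant CLP and 3.08 times in wild-type CLP, and 4.43 times in mutant HSC and 4.48 times in wild-type HSC.

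From MPP4 to CLP the constitutive genes differed little. In wild-type mice Psmg1 was the only 1 of the 46 called, lower in CLP, where 13.1% of all genes were called, and the median log2 difference was −0.07 against −0.05 over all genes. In mutant mice Psma6 and Psmc4 rose and Psmg1 fell, against 24.3% of all genes called, with a median of 0.01 against −0.06. Psma6, an alpha ring subunit, had 192, 237, 259 and 228 RPKM in mutant CLP, against 157, 183, 167 and 202 RPKM in mutant MPP4, where the lowest CLP library lay within the MPP4 range (0.37 ± 0.10, adjusted p = 0.0112 by limma). With each number taken as 1 mouse and used as a block, 2 were called in wild-type mice, where Psmd5 fell as well. In mutant mice 6 were called, where Psma2, Psmd8 and Psmd13 rose as well. That block joins mutant number 4, labelled 10 weeks in CLP and 12 weeks in MPP4, so the added mutant calls are uncertain. Over all genes it called 725 higher and 1282 lower in wild-type mice, in place of 548 and 963. For mutant mice it called 1116 and 2332, in place of 904 and 1886. With median-ratio scaling in place of none, 8 rose and none fell in mutant mice, and none was called in wild-type mice. Quantile normalization gave 2 higher and 2 lower in mutant mice and none in wild-type mice. Over all genes, median-ratio scaling called 1304 higher and 1530 lower in mutant mice and 676 and 798 in wild-type mice. With quantile normalization these were 1051 and 1221 in mutant mice and 620 and 746 in wild-type mice.

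Psmg1 encodes PAC1, which pairs with Psmg2 to build the alpha ring. It had 53.3, 39.8 and 45.6 RPKM in wild-type CLP, against 60.8, 62.5 and 56.1 RPKM in wild-type MPP4. In mutant mice it had 42.2, 52.7, 48.5 and 53.9 RPKM in CLP, against 70.0, 55.6, 59.2 and 57.0 RPKM in MPP4. The CLP libraries were lower than the MPP4 libraries in both genotypes, with log2 differences of −0.37 ± 0.12 in wild-type mice (adjusted p = 0.0436 by limma) and −0.29 ± 0.10 in mutant mice (adjusted p = 0.0471). Both calls stood near the threshold: the wild-type call was lost under 8 of 15 alternatives, among them leaving out any of the MPP4 libraries or the CLP replicate 2 or 3 library, and the mutant call under 9 of 17.

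Across both ends, 12 genes rose and 5 fell in wild-type CLP relative to HSC, against 19.4% of all genes called higher and 31.7% lower (51.1% in either direction). Psmc4 rose by 0.42 ± 0.07, Psmd13 by 0.50 ± 0.11 and Psmb3 by 0.38 ± 0.10 on the log2 scale, and Psma2, Psme3 and 7 others also rose. Besides Psma8 and Psmf1, the 5 that fell were Psmg1 (−0.42 ± 0.12), the beta subunit Psmb4 (−0.25 ± 0.10) and Psmd5, a chaperone of the ATPase ring (−0.23 ± 0.08). With each mouse as a block, Psmd10, another chaperone of that ring, was called lower as well (−0.33, adjusted p = 0.0356 by limma). Leaving out single libraries ended 6 of these calls at least once: those of Psma1, Psma2, Psmb4, Psmd5, Psmd14 and Psme3 were lost under 5 to 8 of 15 alternatives, each with 1 or more of the HSC or CLP libraries left out. With median-ratio scaling the split was 18 higher and 3 lower, and with quantile normalization 8 and 5. Median-ratio scaling gave 2846 genes higher and 3010 lower over the whole table, in place of 2227 and 3648. Quantile normalization gave 2919 and 2776 there, and the mouse as a block 2459 and 3983.

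No proteasome gene was called between genotypes in any population. In mutant HSC relative to wild-type HSC none of the 46 was called by limma, where 0.0522% of all genes were, and 3 of the 46 and 512 of all genes had an unadjusted p under 0.05. In MPP4 none was called against 0.217% of all genes, with 3 and 936 at an unadjusted p under 0.05, and in CLP none against 0%, with 0 and 507. Under every alternative run the count stayed at 0.

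The directions nevertheless leaned. All 14 genes of the alpha and beta rings were lower in mutant than in wild-type MPP4, by log2 differences between −0.22 and −0.05, and the smallest adjusted p among them was 0.641. All 14 were also lower in mutant HSC (−0.15 to −0.01), whereas in CLP 9 were higher and 5 lower. Ring genes rise and fall together from library to library (median pairwise r = 0.704 after removing group means, over 21 libraries), so the 14 are far from separate observations. Quantile normalization left 13 of 14 lower in MPP4 and 12 of 14 in HSC, and over all alternatives between 10 and 14 were lower in HSC.

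Among all 46 genes, 38 were lower and 8 higher in mutant MPP4, with a median log2 difference of −0.09 against 0.02 over all genes. In HSC 32 were lower and 14 higher (median −0.04 against 0.01), and in CLP 21 were lower and 25 higher (median 0.00 against 0.00). In CLP the balance rested on single libraries: without the mutant replicate 1 library all 14 ring genes were higher in mutants, and without the wild-type replicate 2 library 11 of 14 were lower. The difference of the mutant effect between MPP4 and HSC was called for none of the 46 (background 0%), and likewise that between CLP and MPP4 (background 0%), at an unadjusted p under 0.05 for 0 and 1 of them, and for 436 and 442 of all genes.

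Sums of other gene lists also differed between the genotypes in MPP4, mostly without calls. The summed HSC markers were 102 ± 6.57 RPKM in mutant and 51.4 ± 10.1 RPKM in wild-type MPP4, with 2 of 7 markers called higher. The MPP4 markers summed to 1095 ± 71.6 RPKM in mutant and 1509 ± 175 RPKM in wild-type MPP4, and none of the 4 was called. Proliferation genes summed to 1138 ± 133 RPKM in mutant and 1287 ± 56.2 RPKM in wild-type MPP4, where the libraries overlapped, and none of the 12 was called. The erythroid sum was 378 ± 50.4 RPKM in mutant and 216 ± 62.2 RPKM in wild-type MPP4, with none of 6 genes called (SD, n = 4 and n = 3). The plasmacytoid dendritic sum was 127 ± 2.66 RPKM in mutant and 188 ± 23.0 RPKM in wild-type MPP4, without overlap. The neutrophil and myeloid sum was 1208 ± 665 RPKM in mutant and 850 ± 256 RPKM in wild-type MPP4, with overlap. Sums of CLP markers (21.2 ± 6.85 and 40.2 ± 18.2 RPKM) and plasma cell genes (83.1 ± 8.29 and 102 ± 21.4 RPKM) were lower in mutant MPP4, also with overlap. The part of these gene lists in the lower ring levels was not tested.

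**Figure D4:**
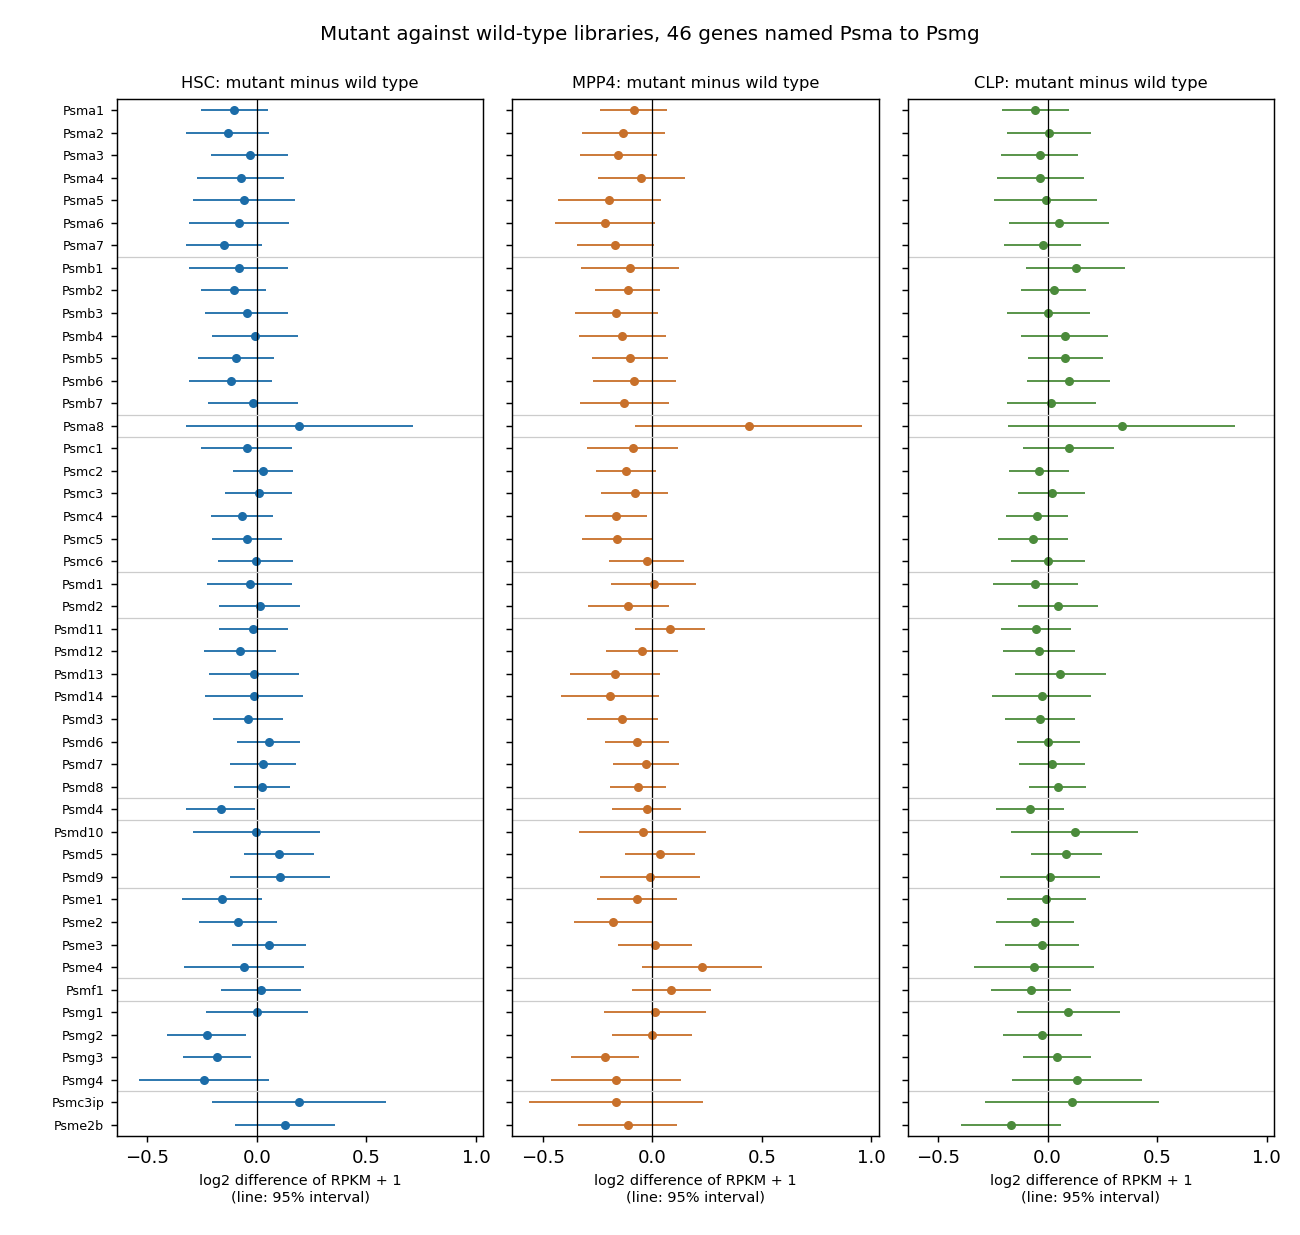
Log2 difference of mutant minus wild type (RPKM + 1) for the 46 genes in HSC, MPP4 and CLP, with 95% intervals as lines. The points of both rings (the first 14 rows) lie left of 0 in HSC and MPP4 and on both sides of 0 in CLP, and no gene passes the adjusted threshold.

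In MPP4 and HSC the smallest p-value between genotypes was that of an assembly chaperone, Psmg3 in MPP4 and Psmg2 in HSC. Psmg3, or PAC3, which helps to form the alpha ring, had 37.2, 38.5, 40.3 and 37.7 RPKM in mutant MPP4, against 45.1, 46.2 and 43.0 RPKM in wild-type MPP4. The genotypes did not overlap, and the log2 difference was −0.21 (95% interval −0.37 to −0.06), with an unadjusted p of 0.00946 and an adjusted p of 0.358 by limma. In HSC, Psmg3 had 34.7, 35.3, 28.5 and 31.1 RPKM in mutant, against 37.6, 35.1 and 37.4 RPKM in wild-type libraries, which overlapped. Psmg3 shares 280 exon bases with Gm26938 on its own strand.

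Psmg2, the partner of Psmg1, had 39.3, 42.2, 42.0 and 50.5 RPKM in mutant HSC, against 48.2, 50.9 and 53.8 RPKM in wild-type HSC. The replicate 4 mutant library lay within the wild-type range and the other 3 below it (log2 difference −0.23, 95% interval −0.41 to −0.05, adjusted p = 0.977 by limma). In CLP the smallest p was that of Psme2b, with 17.8, 18.8, 16.8 and 16.1 RPKM in mutant, against 18.3, 20.0 and 20.6 RPKM in wild-type libraries, which overlapped (−0.17, 95% interval −0.40 to 0.06, adjusted p = 1.00).

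Libraries of the same group differed in their proteasome level as a whole. The mutant CLP replicate 1 library had 2 of the 31 subunits above their group mean and a mean log2 deviation of −0.13, the lowest of the 21. Mutant CLP replicate 3 had 30 of 31 above, with a mean deviation of 0.09, and wild-type CLP replicate 2 had 5 of 31 above, with −0.09. Pairs of the 31 subunits had a median r of 0.320 across libraries after group means were removed, between −0.715 and 0.941, and 364 of 465 pairs were above 0. The 14 ring genes were more alike (0.704) than the cap subunits (0.272). These correlations describe 21 libraries, and all genes of a library share its scaling and its sequencing depth, which is not given.

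**Figure D5:**
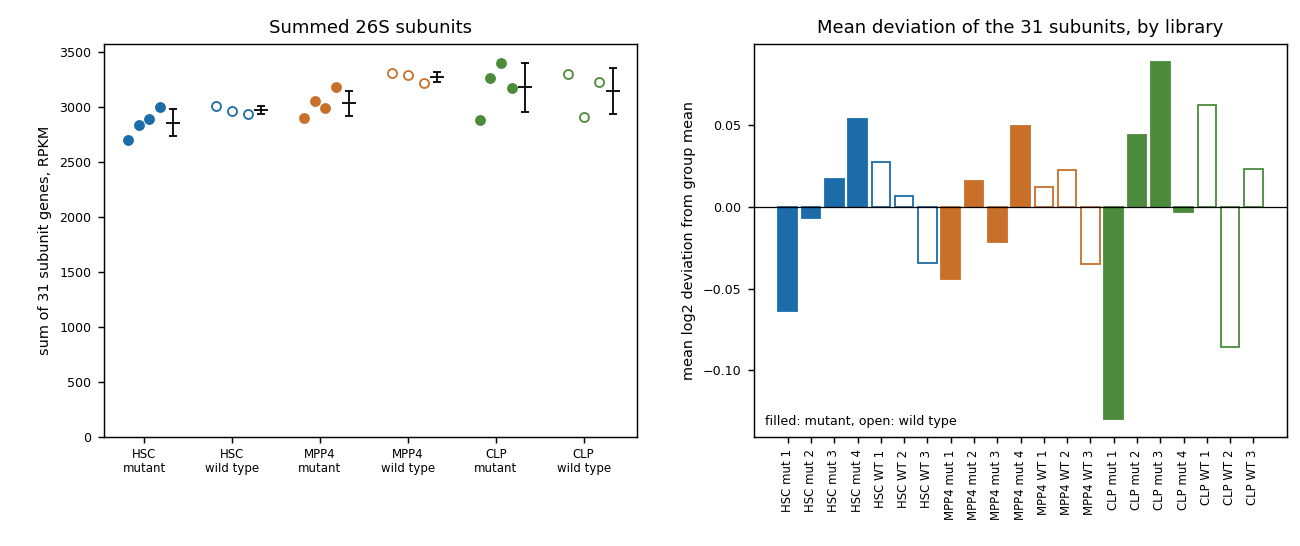
Left, the summed RPKM of the 31 subunits of the 26S particle in each library, with the group mean and SD; right, the mean log2 deviation of those subunits from their group mean, library by library. Mutant MPP4 libraries lie below all wild-type MPP4 libraries at the left, and mutant CLP replicate 1 has the lowest bar at the right.

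Outside the proteasome, the genes that followed the 31 subunits most closely across libraries, after group means were removed, were Ndufv2 (r = 0.884), a subunit of respiratory complex I, the translation factor Eif1ax (0.876), the RNA polymerase II subunit Polr2d (0.871), Cops5 (0.856), the catalytic subunit of the COP9 signalosome, and the mitochondrial ribosomal protein Mrpl44 (0.842). The median r of all other genes was 0.049. These are descriptions over 21 libraries.

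Genes of the wider ubiquitin-proteasome pathway were looked at in the same comparisons. Of 38 pathway genes looked for, 34 were in the table, covering regulators, assembly and associated factors, shuttle receptors, the p97 segregase with its cofactors, and ubiquitin and its activating enzymes. In wild-type MPP4 relative to HSC, 2 rose (5.88%, against 16.1% of all genes) and 6 fell (17.6%, against 23.3%), with a median log2 difference of −0.02 against −0.06 over all genes. In mutant mice 3 rose and 5 fell (8.82% and 14.7%, against 16.0% and 23.1% of all genes). Whether these genes differ from the 46 was not tested. Nfe2l2, which drives antioxidant and proteasome genes under stress, averaged 25.3 ± 3.77 RPKM in wild-type MPP4 and 33.9 ± 4.12 RPKM in wild-type HSC and fell by 0.41 on the log2 scale. Zfand5, a proteasome-binding activator, averaged 20.6 ± 3.15 RPKM in wild-type MPP4 and 32.1 ± 4.02 RPKM in wild-type HSC, and fell by 0.62. Ngly1, the deglycosylase that processes Nfe2l1, fell by 0.50, and the shuttle receptor Ubqln2 by 0.60, while Ddi2, the protease that cleaves Nfe2l1, rose by 0.50 and the deubiquitinase Uchl5 by 0.33.

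In CLP relative to MPP4, Nfe2l2 fell by 0.43 and Zfand5 by 0.43 in wild-type mice. They were the 2 of 34 pathway genes called there, against 13.1% of all genes. Ngly1 and Ubqln2 were not called in that step in either genotype. In mutant mice 3 of the 34 fell and none rose, against 24.3% of all genes called in either direction. Zfand5 fell by 0.60, Nfe2l2 by 0.56, and Nfe2l1, the main inducer of proteasome genes, by 0.35. In wild-type CLP relative to HSC 1 pathway gene rose and 10 fell (2.94% and 29.4%, against 19.4% and 31.7% of all genes), so the share that fell was near that of all genes. Zfand5 stood at 14.9 ± 0.479 RPKM in CLP and 32.1 ± 4.02 RPKM in HSC. Pomp, the maturation factor of the beta rings, averaged 32.4 ± 3.27 RPKM in mutant MPP4 and 27.2 ± 2.67 RPKM in mutant HSC and rose by 0.24 there, without a call in wild-type mice. None of the 34 was called between genotypes in any population.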

How the data were processed

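RNA of sorted cells was amplified with SMART-seq v4 and made into libraries with NexteraXT, per the labels' protocols; this chemistry marks no strand. Reads were aligned with STAR to mm10, per the submitters' processing notes; for the counter, the annotation, versions and gene filters: not given in the sources used here. The deposited table holds RPKM values, computed by the authors for 11628 genes. Here log2(RPKM + 1) was fitted with limma 3.58.1 in R 4.3.3 (trend, 1 mean for each of 6 groups, 15 residual and 4.62 prior degrees of freedom) over the 11496 genes with at least 1 RPKM in at least 3 libraries; 132 genes were left out. The code was tested on simulated data. The 10 comparisons were adjusted over all genes tested, two-sided. Libraries are called by population, genotype and the number in their labels.

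Members, roles and pathway lists were chosen with earlier results of these data known. Given library by library are the gene with the smallest p in each genotype comparison, up to 3 called genes with the largest changes in each direction in the wild-type steps from HSC to MPP4 and from MPP4 to CLP, and Psmb5, Psmb6 and Psmb7; Psmb3, Psme2 and others were named after their values were seen. The series names 3 wild-type and 4 mutant mice, and wild-type numbers agree in age and sex across populations, so a number was taken as 1 mouse in an alternative; mutant number 4 differs in age between CLP and the other populations. Same-numbered libraries of 1 genotype deviated together with correlations of 0.0941 to 0.481, over 0.1 in 19 of 21 pairs. With different numbers the range was −0.489 to 0.341, over 0.1 in 7 of 54 pairs. Same-numbered libraries of 1 population but different genotype, hence of different mice, had −0.155 to 0.453, over 0.1 in 5 of 9 pairs. A shared number can thus go with likeness without a shared mouse, and these values do not settle the pairing. Exon overlaps come from GENCODE M21 and promoters from RefSeq GRCm38.p6. As deposited, 16 symbols stand as dates. Those whose Entrez number matched a RefSeq gene were given its RefSeq symbol. Alternatives were a pseudocount of 0.1, no filter, median-ratio scaling, quantile normalization, sex as a term, library weights, the compared groups alone, replicate blocks and leaving out each library.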

Additional observations from a re-analysis of the deposited data

Results flagged for a closer look

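Among 147 sets of 4 mutant libraries, 1 for each gene and population examined, 5 had a library far from the other 3 by Dixon's criterion, where chance gives about 1 in 20. Psmb6 had 150 RPKM in mutant MPP4 replicate 1, below the 175 to 177 RPKM of the others. Psmd1 had 80.2 RPKM in mutant HSC replicate 1, above 74.7 to 75.4 RPKM. Psmd14 had 83.4 RPKM in mutant MPP4 replicate 2, above 75.6 to 76.6 RPKM. In mutant CLP replicate 1, Psmd3 was high at 57.2 RPKM, above 48.7 to 50.1 RPKM, and Psmg3 was low at 36.2 RPKM, below 40.8 to 40.9 RPKM.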

How the results depend on the processing

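Of 173 counts of called members over the comparisons and alternatives, 162 stayed within 1.5 times the value given and 11 moved. Those that stayed include the counts of 0 in the genotype comparisons. In wild-type CLP relative to MPP4 the count of 1 became 0 with median-ratio scaling, 0 with quantile normalization, 0 with the compared groups alone and 2 with the mouse as a replicate block. In wild-type CLP relative to HSC, 17 became 11 with the compared groups alone. In mutant CLP relative to MPP4, 3 became 8 with median-ratio scaling and 6 with the mouse as a replicate block. With the number as a replicate block the counts were 14, 1 and 17 for the 3 wild-type comparisons and 12 and 4 for the mutant ones, and no block changed the 0 calls between genotypes. Leaving out each library in turn gave 0 to 0 for the genotype comparisons and their differences, 11 to 14 for wild-type MPP4 relative to HSC, 0 to 1 for wild-type CLP relative to MPP4, 12 to 16 for wild-type CLP relative to HSC, 9 to 14 for mutant MPP4 relative to HSC and 2 to 4 for mutant CLP relative to MPP4. Of 766 values of single genes, 688 kept direction and side of the threshold, 78 lost the call and 0 turned round. Among these, Psmg2 in HSC, Psmg3 in MPP4 and Psme2b in CLP between genotypes had no call to lose. In mutant MPP4 relative to HSC, 9 higher and 2 lower became 14 and 2 with median-ratio scaling and 7 and 3 with quantile normalization; in wild-type mice 12 and 2 became 19 and 2, and 11 and 2. Scaling and the mouse block also moved the calls over all genes, as given above. Scaling moved the all-gene median of wild-type CLP relative to HSC from −0.10 to 0.02 under quantile normalization. The causes were not tested. Without read totals, counting error cannot be given, and the low genes Psma8 and Psme4 are the least certain.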
